A study of Mus musculus with 15 samples.

Results

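Matrigel and fibrin were compared as surroundings for induced renal tubular epithelial cells (iRECs), which are mouse fibroblasts turned into tubule-like cells by introduced transcription factors (Emx2, Pax8 and Hnf4a are among these). The comparison used 6 of the 15 libraries of the series, 3 per gel, each read against the same 3 libraries of cells on 2D plates. Genes were chosen by level alone: the base mean had to reach 10 in both of the authors' tables, which kept 13804 of 27179 genes. The base mean is a gene's mean normalized read count over the 6 libraries of a table. The gene just outside this minimum had a smaller base mean of 9.9985, and the gene just inside had 10. The iRECs of the Matrigel, Fibrin and 2D groups were 1 line at passages 35, 48 and 53, split from a shared pool at each passage. They were dispensed by hand, fed with Renal Epithelial Growth Medium (REGM) and harvested on day 7. The Matrigel and Fibrin groups were 3D cultures in the named gel, and the 2D group had the medium without a gel. For scale, 2 further groups of the same passages and day are cited below. The collagen I group was a 3D culture in that gel. The printed group was bioprinted in fibrin and collagen I with guided growth, so its gel also held fibrin. The replicates were cultures of this line and not animals, so p-values measure only the spread between these cultures.

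Matrigel is an extract of basement membrane, the sheet under epithelia that is built of laminins, collagen IV, nidogen and heparan sulfate proteoglycans. Fibrin is the protein mesh of a blood clot, cut from fibrinogen by thrombin and broken down by plasmin. Epithelial cells hold laminin mainly through integrins with the alpha 3 or alpha 6 chain, and fibrin and fibronectin mainly through integrins with the alpha v or alpha 5 chain.

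The effect of the gel was taken as the difference of the authors' log2 fold changes over 2D, Matrigel minus fibrin, so that a positive value is higher in Matrigel. Its standard error (SE, the value after ± throughout) joins the errors of both tables, each from 3 libraries per group. A gene was called at a Benjamini-Hochberg adjusted p under 0.05 of a two-sided normal test over all 13804 genes. Of these genes 161 were called, which is 1.17% of those tested, while the unadjusted p was under 0.05 in 894. In 62 genes (0.449%) the level was higher in Matrigel and in 99 genes (0.717%) it was higher in fibrin. The median difference over all genes tested was -0.01, with 6631 genes above 0 and 7173 below 0. The smallest absolute difference called was 0.96 and the median among calls was 1.63. The error of both tables contains the shared 2D libraries. With a correlation of 0.5 assumed between the tables for these libraries, 354 genes (2.56%) were higher in Matrigel and 331 (2.4%) in fibrin, and with an empirical null, whose spread is taken from all genes, 136 (0.985%) and 146 (1.06%). Both settings raised the share called over all genes, so every list count given under them is to be read beside these shares. In simulated data, the test recovered 21% of genes with a true difference of log2 1 and 96.5% of those with 2. The simulated fold changes shared a 2D error, with a correlation of up to 0.5 between the gels, and were not drawn towards 0. Many differences near 2-fold may therefore have gone undetected here. Fewer cells of a kind and less RNA per cell cannot be told apart in these bulk libraries.

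**Figure D1:**
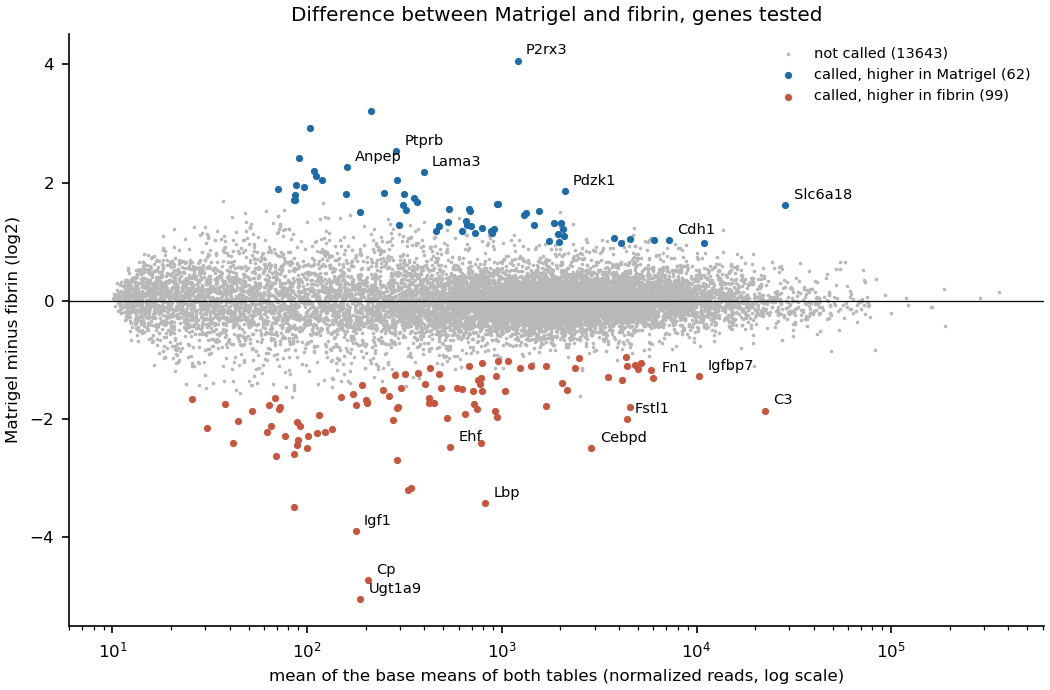
Matrigel minus fibrin difference (log2, vertical axis) against the mean of the base means of both tables (log axis) for the 13804 genes tested, 1 point per gene. The 62 genes called higher in Matrigel lie above 0 and the 99 called higher in fibrin lie below 0, with P2rx3 highest at 4.06 and Ugt1a9 lowest at -5.05.

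For the genes the results turn on, a group level was worked out from the base means and fold changes, in normalized reads. It is 1 mean level per group of 3 libraries, and no value per library was used here, so the spread within a group shows only through the SE. The authors' fold changes were shrunken towards 0: among called genes with base means of 100 or more, the log2 ratio of levels exceeded the deposited difference by a median factor of 1.11. Levels are a description without a test, and they are not given under 10. The level in 2D was the median over the authors' 4 tables, which share the 2D libraries; its highest and lowest values differed by over 1.5 times in 18 of the 77 genes named. The called ones among these were Ugt1a9, Cp, Igf1, Lbp, Ehf, Serpina3g, Lta, Muc20, Ccl17 and Ankrd37, whose levels are therefore approximate.

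The cells carried the markers of their label in both gels. Emx2 stood at a level of 21604 in Matrigel and 19687 in fibrin, Hnf4a at 10689 and 8240, and Pax8 at 18413 and 14561. Their differences were 0.12 ± 0.26, 0.35 ± 0.25 and 0.32 ± 0.24, and none was called. Emx2, Hnf4a and Pax8 are introduced factors, so their levels may include the introduced copies and do not by themselves show tubule identity. Cdh16, the kidney cadherin, had levels of 67280 and 40969 and a difference of 0.66 ± 0.26 that was not called. The simple keratin Krt18 stood at 19825 and 16253, its partner Krt8 at 268 and 201, and the adhesion molecule Epcam at 6234 and 4531, with differences of 0.26 ± 0.26, 0.41 ± 0.36 and 0.42 ± 0.26 that were not called. Among these markers only Cdh1, E-cadherin, was called: its level was 5992 in 2D, 11460 in Matrigel and 5383 in fibrin. The difference for Cdh1 was 1.02 ± 0.26 (normal test, Benjamini-Hochberg adjusted p = 0.013).

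Acute phase genes code for blood proteins that change in inflammation. Of 22 acute phase and iron genes tested, 5 were higher in fibrin and 0 in Matrigel, and the median difference was -0.27. With the correlation of 0.5, under which 2.4% of all genes were higher in fibrin and 2.56% in Matrigel, the counts were 8 and 1. Lbp, which binds bacterial lipopolysaccharide (GRCm38 chr2:158306493-158332852), had a level of 92.2 in 2D, 208 in Matrigel and 2922 in fibrin. Lbp rose over 2D in both gels in the authors' deposited tables, by log2 1.09 ± 0.29 in Matrigel and 4.52 ± 0.28 in fibrin. The gels differed for Lbp by -3.43 ± 0.40 (normal test, Benjamini-Hochberg adjusted p = 5.3e-14). Cp, the copper-carrying ferroxidase ceruloplasmin, had a level of 18.8 in 2D and 778 in fibrin, was under 10 in Matrigel and differed by -4.73 ± 0.43. Serpina3g, a serine protease inhibitor, went from 186 in 2D to 298 in Matrigel and 2470 in fibrin, with a difference of -2.42 ± 0.45. It belongs to a family of near-identical copies among which reads may be split, so its value is uncertain. The broad protease inhibitor A2m stood at 29.9 and 148 with a difference of -1.76 ± 0.46, and Cd14, the lipopolysaccharide co-receptor, at 4037 and 9705 with -1.16. The ferritin genes Fth1 and Ftl1, which store iron, were near 0 at 0.09 and -0.09 and were not called.

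Complement, the cascade of serum proteins that tags and lyses microbes, had 4 of 19 genes higher in fibrin, 0 in Matrigel and a median of -0.42, and with the correlation of 0.5 the count was 6. C3, its central component (chr17:57203967-57228136), stood at 9503 in 2D, 12069 in Matrigel and 59186 in fibrin. The authors' deposited tables put C3 at log2 0.34 ± 0.27 over 2D in Matrigel, which did not pass their test, and rose by 2.20 ± 0.32 in fibrin. The difference for C3 was -1.86 ± 0.42 (normal test, Benjamini-Hochberg adjusted p = 0.0023). The linked proteases of the first component moved the same way: C1s1 had levels of 339 and 1526 with a difference of -1.92 ± 0.37, and C1ra 526 and 1508 with -1.41 ± 0.31. Both have close copies in the mouse genome that may share reads, so their values are uncertain. Not every component was called: Cfb had -0.69, the C1 inhibitor Serping1 -1.44, and C4a 0.58.

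Among 45 cytokine, chemokine and NF-kB target genes, 3 were higher in fibrin and 0 in Matrigel. The median was -0.49 and 38 of the 45 were below 0. At the correlation of 0.5, 6 were higher in fibrin. The 3 called were Lta, a lymphotoxin, at levels of 18.0 and 197 with -2.12 ± 0.49, the chemokine Ccl17 at 42.8 and 340 with -1.93 ± 0.49, and Nfkbiz, an NF-kB cofactor, at 2576 and 7156 with -1.34 ± 0.34. Nfkbia, the inhibitor that NF-kB itself induces, had levels of 1801 and 4953 and a difference of -1.17 that was not called. For several genes of inflammation the base means of the authors' deposited tables lay much farther apart than the differences, none of which was called. The neutrophil chemokine Cxcl5 had a base mean of 3694 in the Matrigel table and 35587 in the fibrin table in the authors' deposited tables, against a difference of -1.10 ± 0.47. Its level in 2D worked out at 3482 to 23438 in the 4 tables, although these share the 2D libraries. The highest value came from the fibrin table, whose fold change was shrunken, which raises the 2D level worked out from a rise. The Matrigel table gave 3721. The levels of Cxcl5 in the gels were 3597 and 68165 with the median, and 3593 and 48443 with each table's own. The iron-siderophore binder Lcn2 had base means of 2135 and 27630 in the authors' deposited tables against -1.14 ± 0.48. The level of Lcn2 in 2D ran from 1662 to 17985, again highest in the fibrin table, against 2165 in the Matrigel table. Its levels in the gels were 2235 and 53817 with the median and 2063 and 37824 with each table's own. Both genes stood higher in fibrin under either level, by amounts that differ. The authors' deposited base means of Ccl2, which draws monocytes, were 49.2 and 491 against -0.66, those of Cxcl1 4864 and 11979 against -0.51, those of Ltb, a second lymphotoxin, 43.5 and 338 against -0.67, and those of Steap4, a metalloreductase, 12.9 and 1495 against -0.60. The level of Steap4 in 2D ran from 13.1 to 1349 over the tables, with the highest value from the fibrin table. No level in fibrin is given for these 4 genes. How far the 3 fibrin libraries differed among themselves for these genes was not tested.

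Cebpd, a C/EBP transcription factor known from the acute phase, had a level of 1054 in 2D, 974 in Matrigel and 8537 in fibrin. The difference for Cebpd was -2.49 ± 0.42 (normal test, Benjamini-Hochberg adjusted p = 2.7e-06). Zc3h12a, an RNase that degrades cytokine transcripts, stood at 436 and 2332 with -1.87 ± 0.44. Interferon response genes had 0 of 35 called in either direction and 4 with an unadjusted p under 0.05, a median of -0.03, Ifit2 at -1.12 and Oas1g at 0.79.

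Promoters of called genes were searched for the kB consensus, the binding motif of NF-kB, on both strands from 250 bases before to 50 bases after the RefSeq start site (GRCm38). A match was found in 7 of the 70 fibrin-higher genes with a promoter in the table (10%), in 4 of 42 Matrigel-higher genes (9.52%) and in 6.43% of 10623 tested genes with one, against 4.51% of all 32851 promoters. The matches of 1500009L16Rik and Tifa lie after the start, and their windows and those of the 4 Matrigel-higher genes are not shown. Serpina3i and Serpina3g belong to 1 gene family, so their windows are not separate cases. The windows of the 5 fibrin-higher genes with a match before the start are shown with the match in capitals (11 letters where matches on both strands overlap), at chr2:131950905-131950964, chr12:104262948-104263007, chr12:104236042-104236101, chr9:5308736-5308795 and chr4:150927936-150927995 in this order, all on the plus strand.
Prnd: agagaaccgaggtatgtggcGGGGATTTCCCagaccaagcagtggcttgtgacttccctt
Serpina3i: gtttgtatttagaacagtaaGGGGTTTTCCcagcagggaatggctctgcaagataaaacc
Serpina3g: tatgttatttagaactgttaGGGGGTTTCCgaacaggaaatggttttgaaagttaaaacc
Casp4: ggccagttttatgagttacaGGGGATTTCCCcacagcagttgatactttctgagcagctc
Tnfrsf9: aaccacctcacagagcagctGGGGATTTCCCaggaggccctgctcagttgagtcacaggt

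The first bases of the capitals lie 112, 154, 85, 93 and 43 bases before the start of Prnd, Serpina3i, Serpina3g, Casp4 and Tnfrsf9. Prnd, Casp4 and Tnfrsf9 carry the identical run GGGGATTTCCC, which was picked out after the windows were read. It occurs in 3 of the 70 fibrin-higher promoters, 0 of the 42 Matrigel-higher ones, 5 of the 10623 tested genes and 8 of 32851 promoters in all. These genes code for a prion-like protein, an inflammatory caspase and the costimulatory receptor 4-1BB, and their differences were -3.17 ± 0.46, -2.30 and -1.80 ± 0.36. ACGTG, the core of the hypoxia element, was in 14.3% of each called set and 29.0% of tested genes. The CArG box of SRF, the E2F motif (TTTCCCGC, TTTCGCGC, TTTGCCGC or TTTGGCGC) and TCACNCCAC of sterol elements were in at most 1 gene of each called set and in 1.53%, 4.61% and 1.45% of tested genes. GGAATG, the TEAD motif, was in 21.4% of fibrin-higher, 14.3% of Matrigel-higher and 14.7% of tested genes. A match is only a run of letters and shows no binding.

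Tubular injury and repair genes had 3 of 28 members higher in fibrin and 0 in Matrigel, with a median of -0.34, and the count was 6 with the correlation of 0.5. Beside C3 these were Igfbp7, an IGF-binding protein shed by stressed tubules, and Anxa1, an annexin with anti-inflammatory actions. Igfbp7 stood at 5629 in 2D, 8597 in Matrigel and 21516 in fibrin, a difference of -1.28 ± 0.32, and Anxa1 at 3623 and 9198 with -1.18 ± 0.34. Spp1, osteopontin, had levels of 79367 and 150074 and -0.84, which was not called. Havcr1, known as kidney injury molecule, stood at 1244 and 1349 with -0.06.

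Ehf, an ETS transcription factor of glandular epithelia, had a difference close to that of Cebpd. Its level was 97.9 in 2D, 188 in Matrigel and 1810 in fibrin. Ehf rose over 2D in the authors' deposited tables, by log2 0.95 ± 0.29 in Matrigel and 3.43 ± 0.34 in fibrin. The difference for Ehf was -2.48 ± 0.44 (normal test, Benjamini-Hochberg adjusted p = 1.4e-05). Muc20, a membrane mucin of the tubule, stood at 136 in 2D, 108 in Matrigel and 729 in fibrin, with a difference of -2.03 ± 0.41. It was the only gene called among the 16 cornified envelope and mucin genes of the list, whose median was 0.08. With the correlation of 0.5 the list had 2 genes higher in fibrin and 1 in Matrigel. Muc5b, a secreted mucin outside the list, was also called higher in fibrin, with -1.86. In the authors' deposited tables Muc20 was at log2 -2.12 ± 0.37 over 2D in collagen I and 1.10 ± 0.29 in printed cultures.

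The IGF axis held the third-lowest difference of all genes. Igf1, the growth factor (chr10:87858265-87937047), had a level of 38.4 in 2D, 16.3 in Matrigel and 622 in fibrin. The authors' deposited tables put Igf1 at log2 -0.76 ± 0.31 in Matrigel, which did not pass their test, and rose by 3.14 ± 0.30 in fibrin. The difference for Igf1 was -3.90 ± 0.44 (normal test, Benjamini-Hochberg adjusted p = 1.5e-15). With Igfbp7 it made 2 of 14 IGF axis genes higher in fibrin, with 0 higher in Matrigel. With the correlation of 0.5 the counts were 3 and 2. The list's median was 0.18, with 9 of the 14 above 0. The receptor Igf1r stood at 15501 and 10974 with a difference of 0.47, and Igfbp1, a binding protein, at 275 and 114 with 1.29; neither was called.

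**Figure D2:**
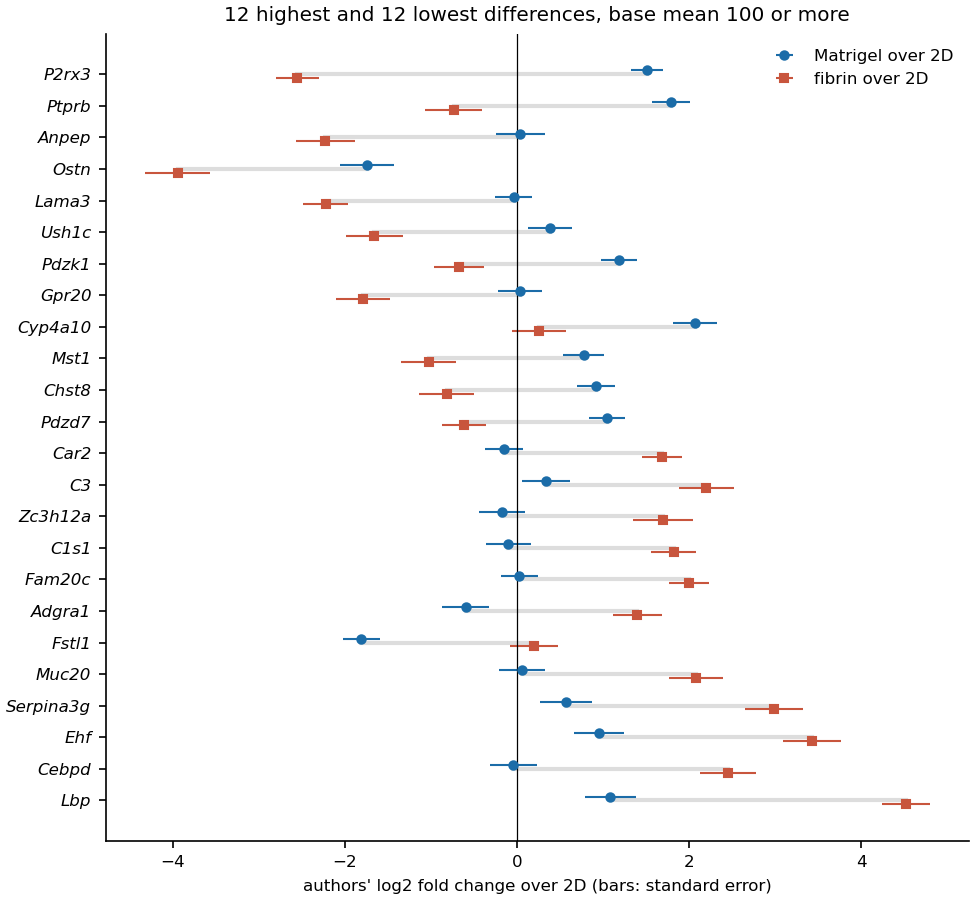
Authors' log2 fold change over 2D in Matrigel (blue circles) and fibrin (red squares) with its SE, for the 12 highest and 12 lowest differences among called genes with base means of 100 or more in both tables. Matrigel lies to the right of fibrin in the upper 12 genes, from P2rx3 (1.51 and -2.55) down, and fibrin lies to the right in the lower 12, with Lbp (1.09 and 4.52) at the foot.

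The remaining fibrin-higher genes among the 12 extremes had other roles. Fstl1, a secreted BMP-binding glycoprotein, stood at 4979 in 2D, 1338 in Matrigel and 6229 in fibrin. Fstl1 fell in the authors' deposited tables by 1.81 on the log2 scale in Matrigel and was at 0.20 ± 0.28 in fibrin, so its difference of -2.01 ± 0.35 came with a fall in Matrigel. Fam20c, the kinase of secreted proteins, stood at 506 and 2273 with -1.97 ± 0.32, and Car2, a cytosolic carbonic anhydrase, at 398 and 1662 with -1.84 ± 0.32. Adgra1, an adhesion-type receptor, stood at 224 and 1133 with -1.99 ± 0.40.

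The highest difference was that of P2rx3, an ATP-gated cation channel best known from sensory neurons (GRCm38 chr2:84996549-85037108). Its level was 932 in 2D, 2812 in Matrigel and 114 in fibrin. In the authors' deposited tables P2rx3 rose by log2 1.51 ± 0.18 in Matrigel and fell to -2.55 ± 0.25 in fibrin. The difference for P2rx3 was 4.06 ± 0.31 (normal test, Benjamini-Hochberg adjusted p = 1e-34). The authors' deposited values of P2rx3 over 2D were -2.50 ± 0.33 in collagen I and 0.91 ± 0.27 in the printed cultures. Ptprb, a receptor phosphatase known from endothelium, was second among genes with base means of 100 or more (chr10:116275502-116389538). Its level was 177 in 2D, 715 in Matrigel and 67.9 in fibrin, and its difference was 2.53 ± 0.40.

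Proximal tubule genes, which serve reabsorption in the first nephron segment, were called in both directions. Of 37 tested, 3 were higher in Matrigel and 1 in fibrin, the median difference was 0.30 and 27 were above 0. Anpep, a brush border aminopeptidase, stood at 190 in 2D, 216 in Matrigel and 39.4 in fibrin, with a difference of 2.27 ± 0.45 (normal test, Benjamini-Hochberg adjusted p = 0.00017). Slc22a12, the urate transporter, stood at 58.3, 196 and 30.1 with 1.78 ± 0.49, and Cubn, the endocytic receptor cubilin, at 1760, 2973 and 1238 with 1.13 ± 0.31. Anpep differed through a fall in fibrin, and Slc22a12 and Cubn rose in Matrigel and did not pass the authors' test in fibrin. The exception was Mme, the brush border peptidase neprilysin, at 83.9 in 2D, 36.1 in Matrigel and 292 in fibrin with -2.22 ± 0.41. Lrp2, megalin, cubilin's partner, stood at 29204 and 21142 with 0.42, and Kap, an androgen-regulated kidney protein, at 3316 and 1007 with 1.03; neither was called. With the correlation of 0.5, under which 2.56% and 2.4% of all genes were called, the counts of this list became 11 for Matrigel and 3 for fibrin, and with the empirical null 5 and 2. For 17 genes of later nephron segments, from the loop of Henle to the collecting duct, the median was 0.21, 0 were called and 2 had an unadjusted p under 0.05.

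Pdzk1, which anchors apical transporters of the proximal tubule, stood at 1720 in 2D, 4051 in Matrigel and 891 in fibrin, with a difference of 1.86 ± 0.36. Ush1c, harmonin, a scaffold known from microvilli and from the stereocilia of hair cells, stood at 305, 452 and 93.8 with 2.04 ± 0.42, and its relative Pdzd7, known from stereocilia, at 304, 676 and 174 with 1.67 ± 0.33. Slc6a18, an amino acid transporter of the brush border, was the most abundant called gene of the Matrigel side with 25550 in 2D, 49030 in Matrigel and 13811 in fibrin. Slc6a18 rose in the authors' deposited tables by log2 0.90 ± 0.19 in Matrigel and fell by 0.72 in fibrin, and its difference was 1.62 ± 0.31.

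Xenobiotic conjugation and NRF2 genes had a median of 0.25 with 35 of 45 above 0, and calls went both ways, 2 to each gel. This split depends on the setting: with the correlation of 0.5 it was 7 in Matrigel and 2 in fibrin, and with the empirical null 4 and 2. Gstm2, a glutathione transferase, stood at 259 in 2D, 1294 in Matrigel and 329 in fibrin with 1.55 ± 0.34. Cyp1a1, the classical target of the dioxin receptor, stood at 77.3 in 2D, 123 in Matrigel and under 10 in fibrin with 1.88 ± 0.49. On the other side Mgst1, a membrane glutathione transferase, stood at 25.2 and 206 with -2.30 ± 0.45. Ugt1a9, a glucuronosyltransferase, had the lowest difference of all genes, -5.05 ± 0.43, at levels of 16.7 and 722. Ugt1a genes share their last exons, so reads may be split between them and the value is uncertain; Ugt1a1 had 1.30 and Ugt1a6a -0.97, not called. Nqo1, an NRF2 target, stood at 19320 and 10719 with 0.81 and was not called. Cyp4a10, a fatty acid hydroxylase under PPAR control, stood at 145 in 2D, 799 in Matrigel and 159 in fibrin, with a difference of 1.81 ± 0.40; it too has close copies that may share reads.

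The other extremes of the Matrigel side had varied roles. Gpr20, an orphan receptor, stood at 287 in 2D, 332 in Matrigel and 83.1 in fibrin with 1.83 ± 0.40, and Chst8, a sulfotransferase, at 301, 645 and 162 with 1.74 ± 0.39. Mst1, a hepatocyte-growth-factor-like protein, stood at 147, 279 and 57.6 with 1.80 ± 0.40. Ostn, osteocrin, fell below 2D in both gels in the authors' deposited tables, by 1.74 on the log2 scale in Matrigel and by 3.94 in fibrin. The difference for Ostn was 2.20 ± 0.49, but its levels, 43.5 in Matrigel and 27.3 in fibrin, lay only log2 0.67 apart, or 2.02 with each table's own level in 2D.

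**Figure D3:**
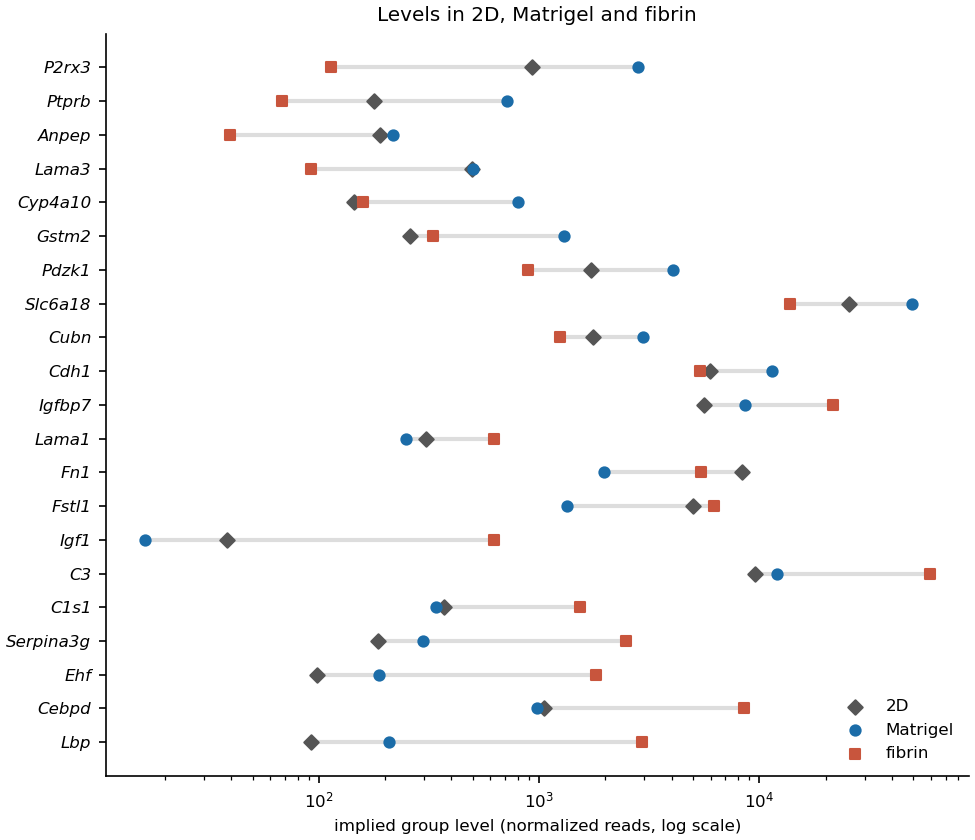
Group level in normalized reads (log axis) in 2D (grey diamonds), Matrigel (blue circles) and fibrin (red squares) for 21 called genes, 1 value per group without a spread. The grey bar spans the 3 groups; C3 reaches 59186 in fibrin, and Slc6a18 reaches 49030 in Matrigel.

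Laminins and laminin receptors had 2 of 16 members higher in Matrigel and 1 in fibrin, and a median of 0.44; with the correlation of 0.5 the counts were 4 and 1. Lama3, the alpha 3 chain of epithelial laminin (chr18:12333417-12583013), stood at 494 in 2D, 502 in Matrigel and 92.2 in fibrin. In the authors' deposited tables Lama3 was at log2 -0.04 ± 0.21 in Matrigel and fell by 2.22 in fibrin. The difference for Lama3 was 2.18 ± 0.34 (normal test, Benjamini-Hochberg adjusted p = 1.1e-07). Itgb4, the integrin chain of hemidesmosomes, which binds this laminin, stood at 4547, 4830 and 2369 with 0.98 ± 0.26. Lama1, the alpha 1 chain found in Matrigel and in early kidney basement membrane, went the other way with 307 in 2D, 248 in Matrigel and 624 in fibrin and a difference of -1.22 ± 0.32. The laminin-binding integrin chains Itga3 and Itga6 stood at 76817 and 50824 and at 13618 and 9151, with 0.53 and 0.54, which were not called. The other basement membrane components had 0 of 20 called, 2 with an unadjusted p under 0.05 and a median of 0.06, with Col4a1 of collagen IV at 50956 and 46954 and a difference of 0.10.

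Neither list that deals with fibrin itself held a call by the normal test, and with the correlation of 0.5 each held 1, higher in fibrin. Receptors for fibrin, fibronectin and collagen had 0 of 17 called, 2 with an unadjusted p under 0.05 and a median of -0.04. Itgav, the alpha v chain, had -0.30, Itga5, the fibronectin receptor chain, 0.31, and Itga2, a collagen receptor chain, -0.63. Plasmin, coagulation and thrombin receptor genes had 0 of 19 called, 2 with an unadjusted p under 0.05 and a median of 0.02. Plat and Plau, the activators of plasminogen, stood at 72592 and 58829 and at 18177 and 17202, with 0.27 and 0.08. The fibrinogen chain Fga stood at 58.9 and 136 with -0.98; none of these was called.

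Matrix proteases and inhibitors had 2 of 27 higher in Matrigel and 1 in fibrin, or 3 and 3 with the correlation of 0.5. Timp3, a matrix-bound protease inhibitor, stood at 4790 in 2D, 3808 in Matrigel and 1741 in fibrin with 1.07 ± 0.26, and Mmp28, an epithelial metalloproteinase, at 1010, 615 and 272 with 1.14 ± 0.30. Adamts7, which cleaves cartilage matrix proteins, stood at 68.9, 31.1 and 282 with -2.25 ± 0.44. Fibrillar collagens and fibroblast matrix had 1 of 24 called, Fn1, fibronectin, at 8347 in 2D, 1977 in Matrigel and 5404 in fibrin. Fn1 fell in the authors' deposited tables by 1.97 on the log2 scale in Matrigel and was at -0.65 ± 0.27 in fibrin, and the difference was -1.32 ± 0.34. In that list 4 were higher in fibrin with the correlation of 0.5. Its median was -0.26, and the proteases' was -0.07.

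Actin and SRF/MRTF targets had 1 of 27 higher in fibrin, Cald1, the actin binder caldesmon, at 6181 in 2D, 2208 in Matrigel and 4690 in fibrin with -1.09 ± 0.31. The median was -0.21 and 20 of the 27 were below 0. With the correlation of 0.5, under which 2.4% of all genes were higher in fibrin, 6 of the list were. With the empirical null, under which that share was 1.06%, 4 of the list were. Tpm1, a tropomyosin, stood at 10996 and 19727 with -0.80, and Acta2, smooth muscle actin, at 10.8 and 48.2 with -1.25, not called. YAP/TAZ targets had 0 of 23 called, 1 with an unadjusted p under 0.05 and a median of -0.03, with Ctgf at 11032 and 10928. Mesenchymal factors had a median of -0.52 over 17 genes. Their 1 called member, Mcam, an adhesion molecule also found on pericytes and endothelium, went against the median with 1.28 ± 0.32. With the correlation of 0.5 the list had 4 genes higher in fibrin and 2 in Matrigel, and with the empirical null 1 and 1. Zeb2, an E-cadherin repressor, stood at 123 and 321 with -1.21, and Vim, vimentin, at 3973 and 7154 with -0.70; neither was called. Of 47 junction and polarity genes 36 were above 0, with a median of 0.18, and Cdh1 was called higher in Matrigel and Ehf, which regulates epithelial genes, in fibrin. Keratins had 0 of 9 called and 0 with an unadjusted p under 0.05.

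**Figure D4:**
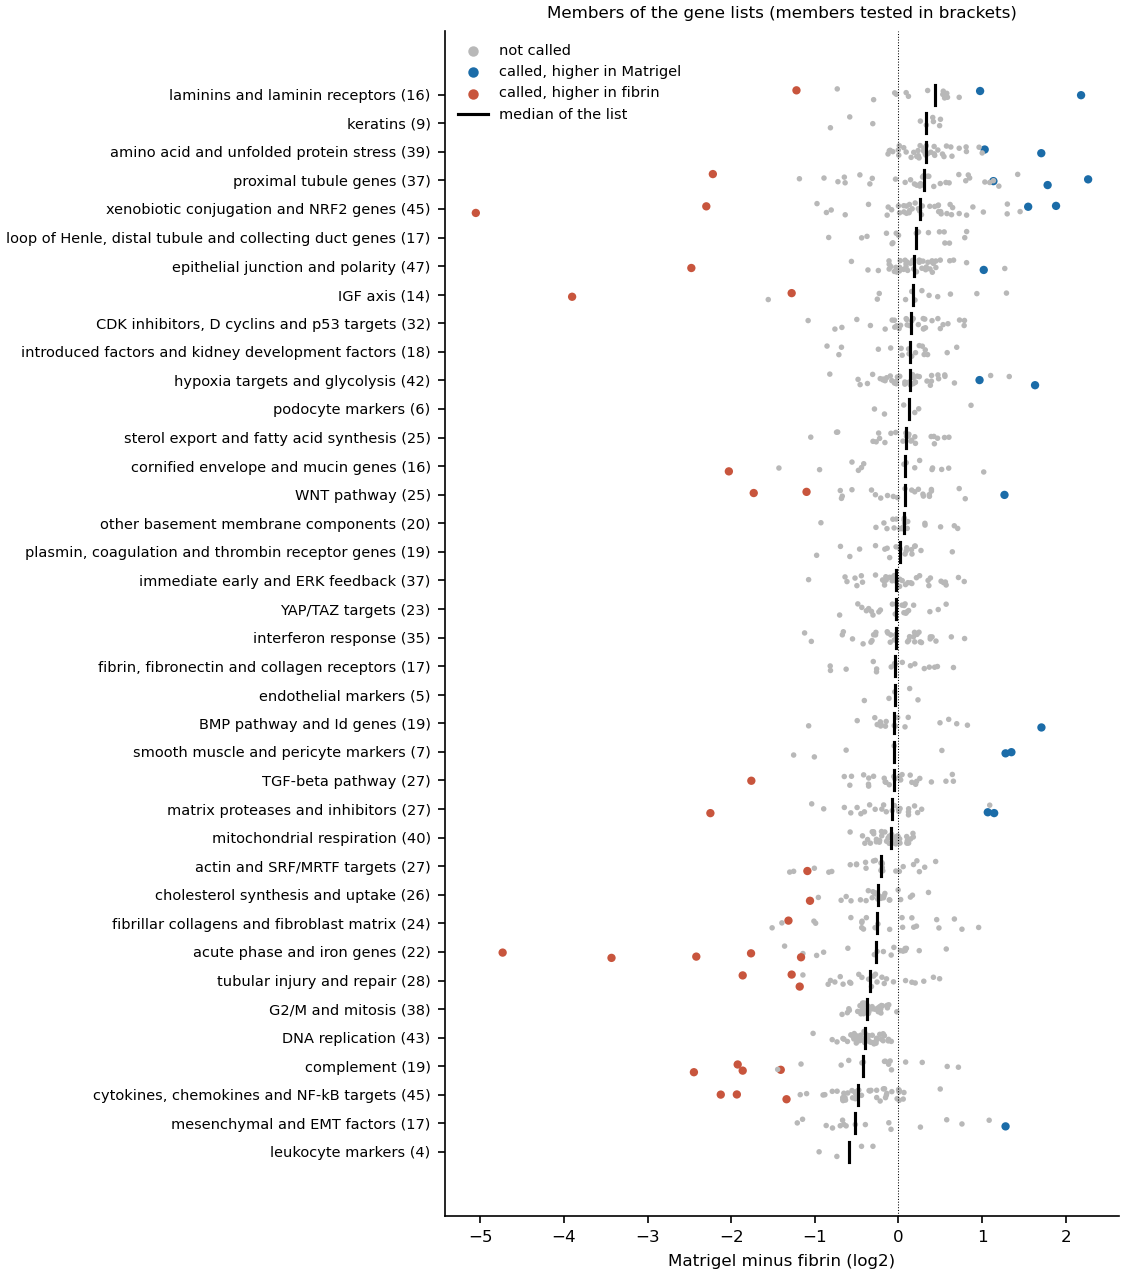
Matrigel minus fibrin difference (log2) of each tested member of the 38 gene lists, 1 point per gene, with the list's median as a black bar and lists ordered by it; vertical scatter within a row has no meaning. Laminins and their receptors have the highest median at 0.44, DNA replication and mitosis genes lie below 0 throughout without a call, and the acute phase, complement and cytokine lists hold only fibrin-higher calls by the normal test with no correlation.

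Cell cycle genes lay on the fibrin side of 0 without a call. Of 43 DNA replication genes 43 were below 0, with a median of -0.40 and 0 called, and the unadjusted p of the normal test was under 0.05 in 2. Of 38 G2/M and mitosis genes 38 were below 0, with a median of -0.38, 0 called and 0 under an unadjusted 0.05. Pcna, the replication clamp, stood at 10496 in Matrigel and 15667 in fibrin with -0.53, and Top2a, a topoisomerase of dividing cells, at 7391 and 11126 with -0.49. The summed level of the replication list was 81166 in 2D, 126268 in Matrigel and 166934 in fibrin, and that of the mitosis list 68649, 96538 and 129061. With the correlation of 0.5, 2 replication genes and 0 mitosis genes were called. CDK inhibitors, D cyclins and p53 targets had 0 of 32 called, 5 with an unadjusted p under 0.05 and a median of 0.15.

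Cholesterol synthesis and uptake had 1 of 26 higher in fibrin and a median of -0.25, or 4 with the correlation of 0.5. Insig1, the sterol sensor that holds SREBP in the endoplasmic reticulum, stood at 2952 in 2D, 4638 in Matrigel and 10146 in fibrin with -1.06 ± 0.28, and it rose in both gels in the authors' deposited tables, by log2 0.71 ± 0.18 and 1.76 ± 0.21. Hmgcs1, an early enzyme of the pathway, had -0.63 and was not called. Sterol export and fatty acid synthesis genes had 0 of 25 called and 2 with an unadjusted p under 0.05. Mitochondrial respiration genes had 0 of 40 called, 0 with an unadjusted p under 0.05 and a median of -0.08.

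Hypoxia targets and glycolysis genes had 2 of 42 higher in Matrigel and a median of 0.14. At the correlation of 0.5, 5 were higher in Matrigel and 1 in fibrin. Vegfa, the angiogenic factor, stood at 11817 in 2D, 13552 in Matrigel and 6607 in fibrin with 0.97 ± 0.26. Ankrd37, a HIF target, had 1.63 ± 0.35 at levels of 650 and 375, a log2 ratio of 0.80, or of 1.32 with each table's own level in 2D. Glycolytic enzymes such as Ldha (-0.03) and Pgk1 (0.20) were not called. Amino acid and unfolded protein stress genes had 2 of 39 higher in Matrigel, 34 above 0 and a median of 0.33, and 7 with the correlation of 0.5. The 2 were Atf5, a stress-induced factor, at 5825, 8618 and 3992 with 1.03 ± 0.26, and Slc7a3, a cationic amino acid transporter, at 97.5, 126 and 24.3 with 1.71 ± 0.47. Ddit3, the stress factor CHOP, stood at 2200 and 1088 with 0.96 and was not called.

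Signalling lists held few calls in number. As a share of members tested, calls made up 12% in the WNT, 5.26% in the BMP and 3.70% in the TGF-beta list. Over all genes tested the share was 1.17%. In the WNT pathway, 2 of 25 were higher in fibrin and 1 in Matrigel: Axin2, a feedback inhibitor that the pathway induces, stood at 182 in 2D, 77.4 in Matrigel and 370 in fibrin with -1.73 ± 0.45. The receptor Fzd2 stood at 784, 346 and 793 with -1.10 ± 0.30, and its relative Fzd4 at 473, 698 and 261 with 1.27 ± 0.31, so the receptors differed in sign. In the TGF-beta list 1 of 27 was higher in fibrin, Nox4, an NADPH oxidase, which fell below 2D in both gels to levels of 45.9 in Matrigel and 117 in fibrin from 273, with -1.76 ± 0.46. In the BMP list 1 of 19 was higher in Matrigel, Chrd, the BMP antagonist chordin, at 104, 109 and 23.4 with 1.71 ± 0.49. Bmp4, a ligand it binds, had -1.07 and was not called. Immediate early and ERK feedback genes had 0 of 37 called and 4 with an unadjusted p under 0.05.

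Markers of other cell types had low summed levels for endothelium and leukocytes, but not for podocytes or for smooth muscle and pericytes. The 14 endothelial markers summed to 1183 in 2D, 1500 in Matrigel and 1746 in fibrin. The 11 podocyte markers summed to 20160, 17398 and 18245. Of 14 endothelial markers 5 were tested with 0 called and 0 at an unadjusted p under 0.05, and of 11 podocyte markers 6 with 0 called and 1 at that p. Of 16 leukocyte markers 4 were tested with 0 called and a median of -0.59, and markers at 0 included Cd3e, Cd4 and Ms4a1. The summed level of the 16 was 942 in 2D, 478 in Matrigel and 744 in fibrin, beside the inflammatory genes that were higher in fibrin. Of 13 smooth muscle and pericyte markers 7 were tested and 2 were higher in Matrigel, Mcam at levels of 1588 and 638 and the receptor Notch3 at 833 and 292 with 1.35 ± 0.34. Other members went the other way: 4 of the 7 were below 0, the lowest being Acta2 at -1.25, and the median was -0.05. With the correlation of 0.5, 2 were higher in Matrigel and 2 in fibrin. The summed level of the 13 was 14089 in Matrigel and 13210 in fibrin. Whether other cells have a part in any difference was not tested.

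The authors' own calls and the other pairs of gels give the scale. Matrigel against 2D gave calls in 6.36% of 14602 genes in the authors' deposited table (4.03% risen, 2.32% fallen) and fibrin against 2D in 8.3% of 14636 (5.19% risen, 3.11% fallen). By the test used for Matrigel minus fibrin, 66 genes (0.48%) were called between Matrigel and collagen I and 74 (0.536%) between fibrin and collagen I. Between Matrigel and the printed cultures, whose gel held fibrin and collagen I, 89 (0.643%) were called. Between fibrin and these printed cultures 201 (1.45%) were called. All these pairs share the 2D libraries, so their calls are not independent. For 3 leading fibrin-higher genes the values over 2D in collagen I and the printed cultures were small beside their SE or under those in fibrin. In the authors' deposited tables C3 was at -0.30 ± 0.41 and -0.01 ± 0.30, Cebpd at 0.06 ± 0.33 and -0.01 ± 0.29, and Lbp at 0.27 ± 0.38 and 0.67 ± 0.31. The authors' deposited values for Lama3 were -1.19 ± 0.26 in collagen I and 0.59 ± 0.26 in the printed cultures, and for Anpep -2.46 ± 0.35 and -0.62 ± 0.32.

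Levels and deposited differences were also set side by side over the genes with base means of 100 or more. Levels lay at least 2-fold apart in 340 of these genes, 173 of them higher in fibrin and 167 in Matrigel, and 115 of them were called. At 4-fold or more there were 42, 32 higher in fibrin and 10 in Matrigel, of which 31 were called. In 14 genes the ratio of levels exceeded 2-fold and the deposited difference by more than 1 on the log2 scale. Of these 14, 12 were higher in fibrin and 0 were called; Lcn2 and Cxcl5 had the widest gaps. In 13 of the 14 the level in 2D differed by over 1.5 times between the tables, so the size of the gap is uncertain.

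**Figure D5:**
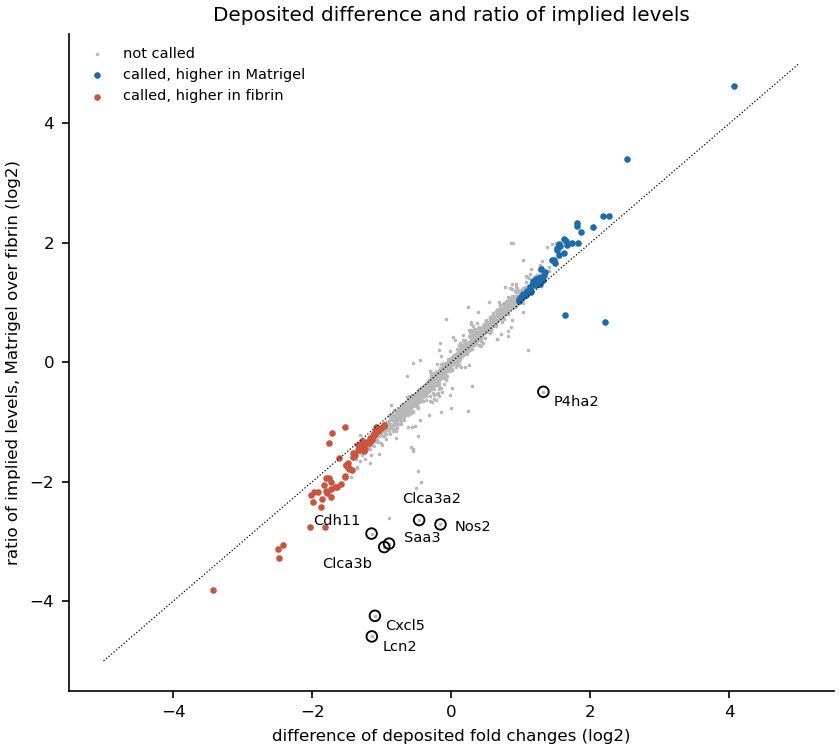
Log2 ratio of implied levels, Matrigel over fibrin (vertical axis), against the deposited difference (horizontal axis) for genes with base means of 100 or more; the dotted line marks equal values and circles mark the 8 widest gaps. Most called genes lie near the line, while Lcn2 (-4.59 against -1.14) and Cxcl5 (-4.24 against -1.10) lie far below it, and P4ha2 has opposite signs; the level in 2D of these 3 genes differs between tables.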

How the data were processed

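Total RNA of 15 iREC libraries was sequenced, 3 for each of 5 culture conditions. Reads were handled with DESeq2 1.22.1, featureCounts 1.6.3, STAR 2.6.0b-1, Trim Galore 0.4.3 and FastQC 0.72 on build mm10, per the submitters' processing notes. Strand setting and design formula were not given in the sources used here, nor was the annotation. Base means, a signal in normalized read counts, were deposited as averages over the 6 libraries of a table after the authors' scaling. Fold changes of the gel over 2D and their standard errors were deposited on the log2 scale. The deposited Wald statistic is a score, and each deposited p-value, raw or adjusted, is the authors' own. The tables hold 0 columns of values per library, so depth is unknown and counting error cannot be stated.

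With pandas 2.3.3, numpy 2.4.6 and scipy 1.17.1, the tables were joined on the gene identifier. The difference of fold changes was divided by the root of the summed squared errors, and two-sided normal p-values were adjusted by Benjamini-Hochberg over 13804 genes. The level in 2D is the median over 4 tables of 2 times the base mean over 1 plus the fold change, and the level in a gel is 2 times its base mean less that level. The test was tested on simulated data. RefSeq tables (GRCm38) gave coordinates and promoters; 93.0% of identifiers were found, and 874 genes had no symbol.

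Named genes were the 12 highest and 12 lowest called differences at base means of 100 or more, up to 4 called members per list and direction, tubular markers, 8 genes whose levels and deposited difference lay farthest apart, and uncalled list members given as values; a few of these are not reported here. The members and the 38 lists were chosen with earlier results of these data known. Alternatives were the correlation of the shared 2D libraries, an empirical null, other base mean minimums, centring and stricter calls.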

Additional observations from a re-analysis of the deposited data

Results flagged for a closer look

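In 9 genes the authors' deposited tables called a change over 2D in both gels, in opposite directions, and the difference between the gels was called as well. Matrigel minus fibrin was 4.065 for P2rx3, 3.214 for gene 100862344, which has no symbol in the tables used, 2.415 for Nrxn2, a neurexin, 1.802 for Mst1, 1.617 for Slc6a18 and 1.338 for Cbfa2t3, a transcriptional corepressor; these rose in Matrigel and fell in fibrin. It was -3.171 for Prnd, -1.8 for Tnfrsf9 and -1.408 for Rab32, a small GTPase, which fell in Matrigel and rose in fibrin. The levels of Nrxn2 were 63.6 in 2D, 215 in Matrigel and 19.4 in fibrin, and those of Prnd 142, 56.3 and 1033. The 2D level lies between the gels in both directions because the genes were chosen by opposite changes over 2D.

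For 8 genes the levels lay far from the deposited difference. The log2 ratio of levels, Matrigel over fibrin, was -4.59 for Lcn2, -4.244 for Cxcl5, -3.093 for Clca3b, -3.036 for Saa3, -2.868 for Cdh11, -2.714 for Nos2 and -2.64 for Clca3a2, against deposited differences of -1.14, -1.10, -0.96, -0.89, -1.15, -0.15 and -0.46. None of these differences was called. Nos2, the inducible nitric oxide synthase, stood at 165 in Matrigel and 1082 in fibrin, with a level in 2D of 151 to 607 over the tables. For P4ha2, a collagen prolyl hydroxylase, the ratio of levels was -0.4941 and the deposited difference 1.32, of opposite sign; its levels of 135 and 190 are small beside 638 in 2D. The level of P4ha2 in 2D ran from 447 to 906 over the tables, and with each table's own level its gel levels were 326 and 187, a log2 ratio of 0.80, so the opposite sign rests on the level in 2D that is used. With each table's own level the ratios were -4.20 for Lcn2, -3.75 for Cxcl5, -2.50 for Clca3b, -2.53 for Saa3, -1.82 for Cdh11, -1.96 for Nos2 and -2.21 for Clca3a2, all still below the deposited differences. Group values do not show which of the fibrin libraries held the reads.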

How the results depend on the processing

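No paired analysis was possible because the tables hold no values per library, and leaving out a passage could not be run for the same reason; depth per library and the part of any 1 library are unknown. With a correlation of 0.5 for the shared 2D libraries, 354 genes were higher in Matrigel and 331 in fibrin. This setting only lowers the SE, so all 161 reported calls were kept by construction. In simulated data it recovered 72.5% of differences of log2 1 with 15 false calls. Those data were built with a shared 2D error of up to this correlation, so the better recovery follows from the build. An empirical null gave 136 and 146, again with all 161. Its spread of 0.90 is under that of the normal test, which enlarges most scores, so keeping the calls is no separate check. Base means of 100 or more gave 49 and 63 of 11262 genes, and an adjusted p under 0.01 gave 33 and 52, fewer by construction. The other settings (no minimum, the authors' adjusted p in both tables, centring, a difference of 1 or more) stayed within 1.5 times, from 59 to 66 in Matrigel and 90 to 108 in fibrin. The 340 genes with levels at least 2-fold apart became 276 with the level in 2D from each table alone. Under an adjusted p of 0.01, 23 of 77 named genes lost their call. No setting reversed a called one, but every setting of the test uses the same difference, shifted at most by a median. A reversal was therefore hardly possible. The correlation of 0.5 called 6 further named genes: Cdh11, Lcn2, Cxcl5, Saa3, Cdh16 and P4ha2.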

Other observations

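Some called genes outside the lists and extremes belong together by known role; they were chosen after their values were seen. Higher in fibrin were the inflammatory caspases Casp1 (-2.63, levels 30.9 and 219) and Casp4 (-2.30), and the antimicrobial proteins Ltf, lactoferrin (-2.49, levels 33.3 and 287), and Defb1, a beta-defensin (-3.49, 305 in fibrin and under 10 in Matrigel). Muc5b, a secreted mucin, had -1.86, and Noxo1, an NADPH oxidase organizer, -1.49. Higher in Matrigel were the gap junction genes Gjb1 (1.52, levels 1796 and 476) and Gjb2 (1.92, levels 236 and 34.3). So were genes of fatty acid oxidation, the peroxisomal thiolase Acaa1b (1.52, levels 2828 and 772) and the hydroxylase Cyp4a31 (1.54, levels 670 and 192). Cyp4a31 is of the same family as Cyp4a10 and may share reads with it. No list of fatty acid oxidation genes was examined, so other members are not covered.

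The base mean minimum was met in the Matrigel table alone by 146 genes and in the fibrin table alone by 210. Without a minimum, 18844 genes were tested, and 18 of the genes left out were called, all of them higher in fibrin. All 18 met the minimum in the fibrin table and missed it in the Matrigel table. Their shared direction is therefore tied to the way they were left out and is no separate check. The lowest differences among them were those of Il2ra, an interleukin 2 receptor chain, at -2.64 ± 0.44, and Bcl2a1b, a survival gene of the Bcl2 family with near-identical copies, at -2.54 ± 0.44; Tnfsf10, the death ligand TRAIL, had -2.18 and Foxa2, a transcription factor of endoderm, -1.55. Their base means in the Matrigel table were 4.98, 3.94, 4.07 and 1.93 normalized reads, so these values rest on few reads.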
